A study of Homo sapiens with 6 samples.

Results

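The genes described are NOX4 and its partner CYBA, the transcription factor NFE2L2 (NRF2) and its inhibitor KEAP1, and the antioxidant genes HMOX1, NQO1, GCLM, TXNRD1, SOD1 and SOD2. They were chosen by name from the deposited table of the study, and all 10 were found among its 20745 genes, each in 1 row. The RNA came from AB 8/13 cells, a conditionally immortalized human podocyte line, that is, glomerular epithelial cells that divide at a permissive temperature and differentiate once it is raised. There were 3 vehicle cultures and 3 cultures treated with 1 µM levamisole, an anthelminthic and immunomodulatory drug, for 24 h, and each group's cultures came from different passages of this single line. The labels describe both groups as serum free, whereas the study's methods keep the vehicle cultures in complete medium. Libraries were made with an adapted CEL-seq protocol, which reads mostly the 3′ ends of polyadenylated RNA.

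The values described are base means, the authors' mean of normalized counts, with 1 pooled value per gene. They describe how abundant each RNA was over the libraries of the authors' fit, and they do not separate vehicle from levamisole. The authors' columns comparing both groups were not used, and values per culture were not analysed here, so no error, n or test can accompany a level. Which libraries entered the mean is not given in the sources used here, and it may hold others than these cultures. Base means started at 0.194, with a median of 21.8, and reached at least 5 for 64.3% of the genes. The other 35.7% lay under 5, although the study's methods state a minimum of 5 reads, and this difference was not resolved. The 22 mitochondrially encoded genes took 34.8% of the summed base means. Of 12 podocyte markers, 8 had a base mean of at least 5, with VIM (vimentin, a filament of mesenchymal cells) at 19062 and WT1, a podocyte transcription factor, at 6.21. PTPRO, a podocyte surface phosphatase, had a base mean of 0.333. The 3 endothelial markers measured lay between 0.306 and 0.690, and the 3 leukocyte markers between 0.832 and 2.40. Of 5 mesangial or smooth muscle markers 3 were measured, with the contractile genes ACTA2 at 1021 and MYH11 at 66.9 and the receptor gene PDGFRB at 4.14. Of 6 tubular markers 3 were measured, with the water channel gene AQP1 at 243, the adhesion gene EPCAM at 76.3 and the endocytic receptor gene CUBN at 1.219.

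NOX4 makes reactive oxygen species from NADPH and oxygen, and is the oxidase best known from kidney. It depends on p22phox, the membrane protein that CYBA encodes, and unlike the phagocyte enzyme it does not need cytosolic activators. NRF2 is the main activator of antioxidant genes. KEAP1 binds it as the adaptor of a CUL3 ubiquitin ligase and keeps its level low, and oxidation of KEAP1 cysteines releases NRF2. NRF2 then binds with small MAF proteins to antioxidant response elements, DNA sites near genes for glutathione synthesis, thioredoxin, quinone and heme enzymes. Superoxide dismutases turn superoxide into hydrogen peroxide.

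Since NRF2 binds such sites, the promoters were searched for the core of the element, TGACNNNGC, on both strands. The RefSeq windows run from 250 bases before to 50 bases after an annotated start (GRCh38.p14). They cover 8 of the 10 genes, at 16 starts. HMOX1 and SOD1 had no entry. The core matched in 3 of the 8 genes, KEAP1, GCLM and TXNRD1, at 4 of the 16 starts (25%), compared with 13.3% of all 35116 promoters in the table. There were 6 matches, 2 on the gene's strand and 4 on the other. KEAP1, GCLM and TXNRD1 are grouped here because they matched, so having the core in common follows from that grouping. The 10 genes were chosen by name as NOX4 and NRF2 antioxidant genes, so the search was not independent of that choice. The sites are printed below as a description. Capitals mark the match, and all are written along the gene's strand, so a match on the other strand appears as its reverse complement.
KEAP1 inner start, first match (chr19:10502807-10502835, minus strand): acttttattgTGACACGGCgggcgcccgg
KEAP1 inner start, second match (chr19:10502784-10502812, minus strand): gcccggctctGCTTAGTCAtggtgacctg
GCLM (chr1:93909446-93909474, minus strand): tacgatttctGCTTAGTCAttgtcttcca
TXNRD1 outer start, first match (chr12:104215670-104215698, plus strand): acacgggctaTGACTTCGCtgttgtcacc
TXNRD1 outer start, second match (chr12:104215761-104215789, plus strand): gcgtccttcgGCTCCGTCAgttcccacag
TXNRD1 inner start (chr12:104286920-104286948, plus strand): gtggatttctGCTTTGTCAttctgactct

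The second KEAP1 match and the GCLM match held the same 9 letters, TGACTAAGC when read on the other strand, and with their neighbours they shared an unbroken run of 13 letters. The same 9 letters occurred in 0.103% of all promoters. This likeness was picked out after the sites were read. The match began 31 bases before the start in KEAP1 and 34 bases before it in GCLM. In TXNRD1 the first match of the outer start began at -99 and the match of the inner start at -102. The second match of the outer start spanned the start itself, from -8 to 1. No match overlapped TGAGTCA, the AP-1 site, which was found at 0 of the 16 starts and in 4.95% of all promoters. NOX4, CYBA, NFE2L2, NQO1 and SOD2 did not hold the core letters in these windows. With the looser TGANNNNGC, 7 of the 8 genes matched, at 68.8% of their starts, compared with 41.8% of all promoters, and the exception was CYBA. A match is a run of letters, and binding of NRF2 was not measured.

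**Figure D1:**
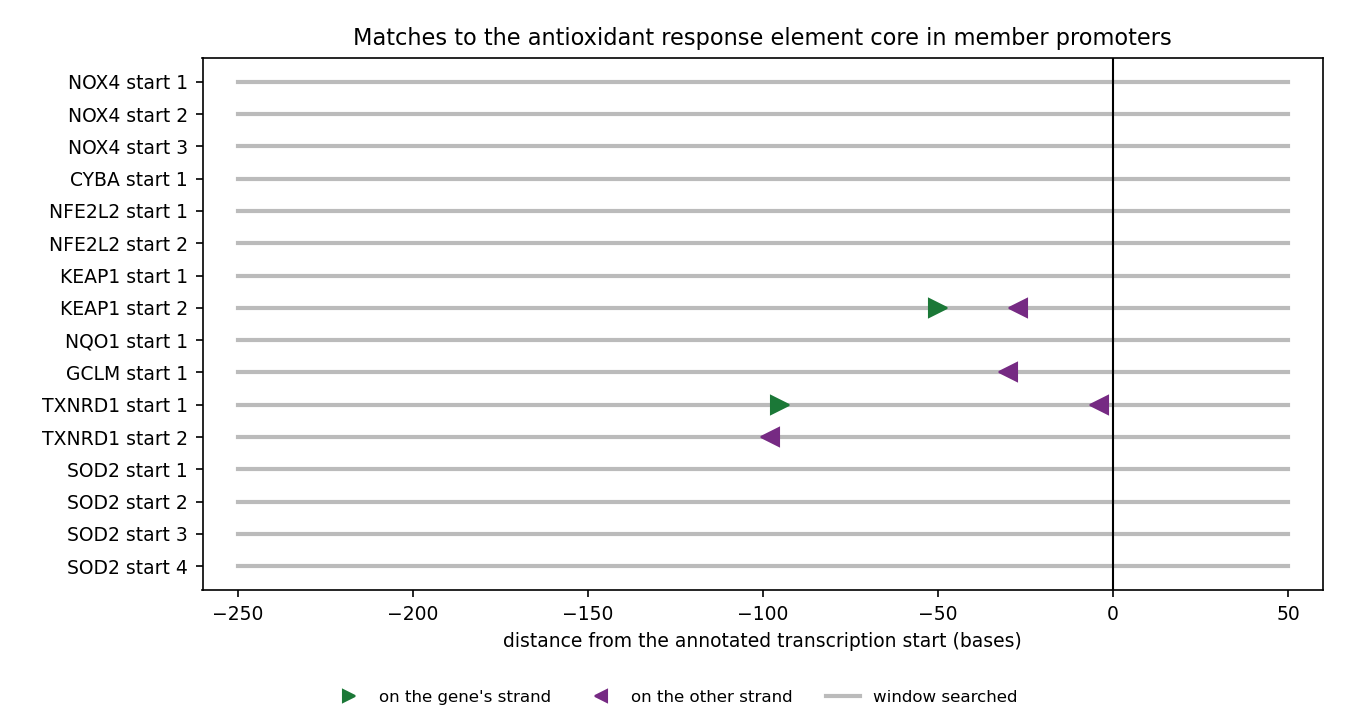
Matches to the core TGACNNNGC at the 16 annotated starts of 8 genes, plotted by distance from the start in bases (x axis), with 1 grey line per window searched. Rightward triangles mark matches on the gene's strand and leftward ones those on the other strand; all 6 lie before or at the start, at KEAP1, GCLM and TXNRD1.

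The 10 genes spanned a 96.6-fold range of base means, from 9.50 for NOX4 to 917 for SOD1, with a median of 293 compared with 21.8 over all genes. Of the 10, 9 lay above the median of all genes and the exception was NOX4. SOD1, NQO1 and TXNRD1 were in the top 5% of all genes. Together the 10 genes took 0.0630% of the summed base means. To compare levels between genes, the base mean was also divided by transcript length, either the median or the longest length of the transcripts annotated for the gene in GENCODE 44. Length scaling suits reads spread along a transcript, whereas reads from 3′ ends do not grow in number with length. An order within a pair of genes is therefore stated as such below only where it held on all 3 scales. The highest and lowest gene of each list were taken by base mean alone. Of the 45 pairs among the 10 genes, 36 kept their order on all 3 scales. NOX4 was lowest on each scale, and SOD1, NQO1 and TXNRD1 were the highest, in an order that changed with the scale.

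**Figure D2:**
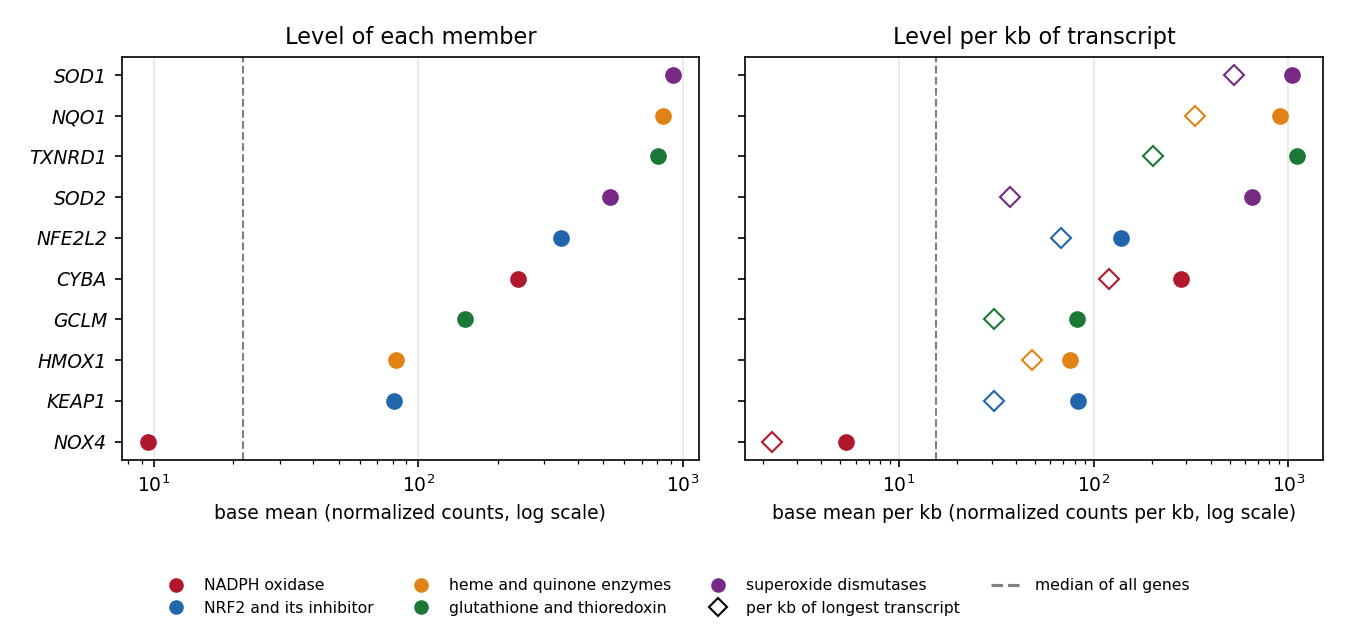
Base mean of each gene (left; normalized counts, log scale) and base mean per kb (right; circles use the median and diamonds the longest transcript length), coloured by role, with the median of all genes as a dashed line (right: of the values by median length). NOX4 lies left of the dashed line in both panels, and SOD1, NQO1 and TXNRD1 lie farthest right by median length.

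NOX4 (ENSG00000086991) is a gene of chromosome 11 (GRCh38, 89324353 to 89498187, minus strand). Its base mean was 9.50, at place 12112 of 20745, above 41.6% of the genes, and its base mean per kb was 5.36. CYBA (ENSG00000051523; chromosome 16, 88643275 to 88651083, minus strand) had a base mean of 238, above 83.7% of the genes. The RNA of the p22phox subunit was thus 25.01 times as abundant as that of its catalytic partner by base mean, and 52.4 times by base mean per kb. The other catalytic oxidases measured had base means of 12.2 or less. DUOX1 and DUOX2, the dual oxidases of epithelia, had base means of 9.45 and 12.2, respectively, and their order relative to NOX4 changed with the length scaling. NOX1, the colon oxidase, was lowest of its list with a base mean of 0.755.

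The list of the NADPH oxidase family held 21 genes, of which 13 were measured. The other 8, among them CYBB and NCF1 of the phagocyte oxidase, were not found under these names among the 20745 genes. A base mean of at least 5 was found for 11 of the 13, and their median was 48.4. The highest by base mean was RAC1, a small GTPase that also activates NOX1 and NOX2 enzymes, with 2022. POLDIP2, reported to bind p22phox and NOX4, had a base mean of 153 and lay above NOX4 on all 3 scales.

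NFE2L2 (ENSG00000116044; chromosome 2, 177218667 to 177392756, minus strand) had a base mean of 348, above 88.6% of the genes. KEAP1 (ENSG00000079999; chromosome 19, 10486125 to 10503558, minus strand) had a base mean of 81.2, above 67.6% of the genes. The RNA of the transcription factor therefore exceeded that of its inhibitor 4.29 times by base mean and 1.65 times by base mean per kb. NRF2 is controlled mainly as a protein, and these values are of RNA. RBX1, the RING subunit of the KEAP1 ligase, had a base mean of 1047 and exceeded KEAP1 on each scale. The scaffold CUL3 had a base mean of 197, above KEAP1 by base mean and below it per kb of the longest transcript, where the ratio was 0.953.

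All 16 genes of the NRF2 regulator list were measured, and all 16 had base means above the median of all genes, with a median of 178. SQSTM1, the autophagy receptor p62 that competes for KEAP1, was highest with 1108, and BACH2, a lymphoid repressor of the same sites, was lowest with 29.7. Among the related factors, NFE2L3 had a base mean of 109 and lay below NFE2L2 on all 3 scales. NFE2L1, with 243, and BACH1, the repressor that competes at heme oxygenase sites, with 96.9, changed places with NFE2L2 according to the length scaling. MAFF, a small MAF partner, had a base mean of 542.

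HMOX1 (ENSG00000100292; chromosome 22, 35380361 to 35394214, plus strand), the inducible heme oxygenase, had a base mean of 82.4, above 67.8% of the genes. Its constitutive paralog HMOX2 had a base mean of 146, which was 1.77 times that of HMOX1, and 1.46 times per kb. NQO1 (ENSG00000181019; chromosome 16, 69706996 to 69726668, minus strand), which reduces quinones in a 2-electron step, had a base mean of 839, at place 945 of 20745. It exceeded HMOX1 10.2 times by base mean and 11.99 times per kb, and its paralog NQO2 13.6 and 12.5 times. Per kb of the longest transcript these ratios were 6.84 and 8.12. NQO1 and HMOX1 are textbook NRF2 targets.

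The list of quinone, heme, iron and aldehyde enzymes held 23 genes, all measured, of which 19 had a base mean of at least 5, with a median of 105. FTH1, the ferritin heavy chain that stores iron freed from heme, was highest with 4020. The aldo-keto reductase AKR1C2 was lowest with 0.708. Its close relatives AKR1C1 and AKR1C3 had base means of 1.41 and 17.5. Reads from such related genes may be lost or split, which was not checked, so their values are uncertain.

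GCLM (ENSG00000023909; chromosome 1, 93885199 to 93909456, minus strand), the modifier subunit of glutamate-cysteine ligase in glutathione synthesis, had a base mean of 150, above 77.2% of the genes. The catalytic subunit GCLC had a base mean of 59.5, so the modifier RNA was 2.52 times as abundant by base mean and 1.95 times per kb. TXNRD1 (ENSG00000198431; chromosome 12, 104215779 to 104350307, plus strand), the cytosolic thioredoxin reductase, had a base mean of 805, at place 999 of 20745. Its mitochondrial paralog TXNRD2 had a base mean of 31.7 and TXNRD3 one of 28.6. TXNRD1 was 25.4 times as abundant as TXNRD2 by base mean, 64.6 times per kb and 20.1 times per kb of the longest transcript. The median transcript length of TXNRD1 was 0.728 kb, compared with 3860 bases for its canonical transcript, so its values per kb depend strongly on the length used.

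In the list of glutathione and thioredoxin genes, 41 of 43 were measured, 37 had a base mean of at least 5 and the median was 212. TXN, the thioredoxin that TXNRD1 reduces, was highest with 3063, and the glutathione transferase GSTA1 was lowest with 0.298. By base mean, GCLM lay below and TXNRD1 above the median of this list.

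SOD1 (ENSG00000142168; chromosome 21, 31659666 to 31668931, plus strand), the copper and zinc enzyme of the cytosol, had the highest base mean of the 10 genes, 917, at place 846 of 20745. SOD2 (ENSG00000112096 in the table), the manganese enzyme of mitochondria, had a base mean of 531, above 92.5% of the genes. GENCODE 44 lists SOD2 under a newer identifier on chromosome 6, 159669069 to 159762529, minus strand, and it was matched by its symbol. SOD1 exceeded SOD2 1.73 times by base mean and 1.60 times per kb. Per kb of the longest transcript, which is 14.2 kb for SOD2, the ratio was 14.03.

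The list of superoxide and peroxide enzymes held 5 genes, and all had a base mean of at least 5. SOD3, the secreted dismutase, was lowest with 19.9, and SOD1 exceeded it 46.1 times by base mean and 29.7 times per kb. CCS, the chaperone that loads copper into SOD1, had a base mean of 35.9, so SOD1 exceeded it 25.6 times by base mean and 25.3 times per kb. CAT, the catalase that removes hydrogen peroxide, had a base mean of 328, and its order relative to SOD2 changed with the length used.

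Over the 5 lists, 98 of 108 genes were measured, with a median base mean of 155, and 82.7% of the 98 lay above the median of all genes. In the canonical transcript of each of the 10 genes described, the last 500 exonic bases were free of exons of other genes on the same strand. For NQO1, 5.40% of these 500 bases lay opposite an exon of a gene on the other strand. Most reads of a 3′ protocol fall near transcript ends, and the ends of other transcripts were not checked. For SOD2 the canonical transcript was 14167 bases long, compared with a median transcript length of 0.815 kb.

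**Figure D3:**
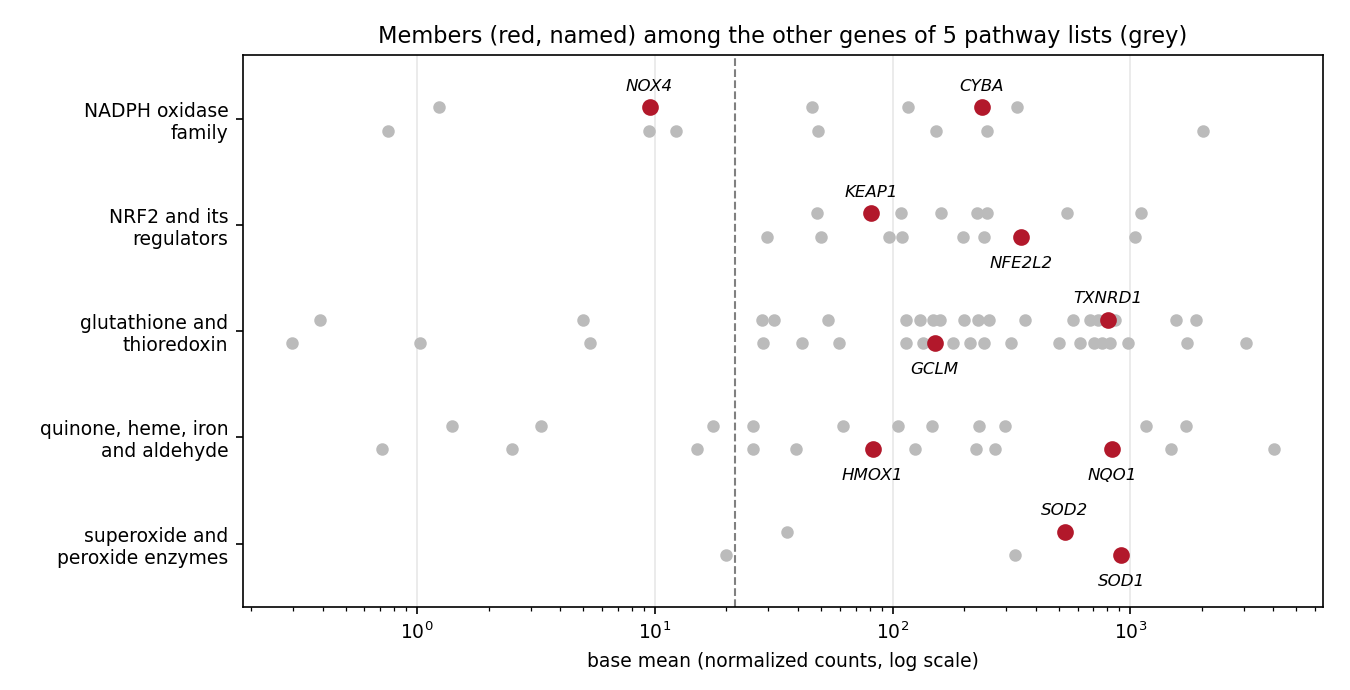
Base mean (normalized counts, log scale) of the genes measured in 5 pathway lists, 1 point per gene, with the genes described in red and named and the others in grey; the vertical spread within a list only separates points, and the dashed line is the median of all genes, 21.8. NOX4 lies left of that line and the other 9 named genes right of it.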

How the data were processed

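RNA of 3 vehicle and 3 levamisole cultures was sequenced. The authors trimmed reads with Trim Galore 0.4.5, mapped them to GRCh38 (Ensembl release 95) with STAR 2.7.5a, counted them with HTSeq 0.11.0 and normalized and compared them with DESeq2 1.22.0 in R 3.5.3, and their methods state a minimum of 5 reads. The methods also name an alignment with BWA. The base mean, as deposited, is a signal: normalized counts that the authors averaged across the libraries they fitted. The other 5 numeric columns hold the authors' comparison of the groups (log2 fold change, its standard error, Wald statistic, p-value, adjusted p-value) and were not used. Depth per library is unknown.

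With Python 3.11.15 and matplotlib 3.10.9, base means were ranked and divided by transcript lengths from GENCODE 44, where 20599 gene IDs matched by ID and 11 by symbol. Promoters came from RefSeq (GRCh38.p14), and the 6 windows printed equal the GRCh38 genome. The motif search was tested on simulated data. No group test was planned for pooled values. The genes and lists were chosen with earlier results of these data known. Named were the 10 genes and the highest and lowest gene of each list; partners, paralogs and markers named beyond them were chosen after their values were seen. Alternatives were other length scalings, base mean minimums, denominators and motifs. Results for some of the listed and marker genes are not reported here.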

Additional observations from a re-analysis of the deposited data

How the results depend on the processing

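With the mitochondrially encoded genes left out of the sum, the share of the 10 genes went from 0.0630% to 0.0967%, because the denominator is smaller. With TGANNNNGC in place of TGACNNNGC, genes with a promoter match went from 3 to 7, because the motif is looser, and on the gene's strand alone there were 2. At a minimum base mean of 5 there were 88 listed pathway genes, compared with 85 at a minimum of 10, 69 at 50 and 98 with none. Of all genes, 64.3% reached a base mean of 5, 57.8% one of 10 and 39.9% one of 50. Of the 45 pairs ordered by base mean per kb, 40 kept their order without length scaling and 37 with the longest transcript. The base mean of 1 read per library could not be read from the lowest values, since all 20745 base means differed, so its tolerance was not varied. No paired analysis was possible because only pooled values were used. For the same reason a group test, its normalizations and filters, and left-out replicates were not run, and the precision of every level is unknown.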
